A study of Mus musculus with 6 samples.

Results

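Striatal projection neurons are the GABA-releasing output cells of the striatum, and a small group of transcription factors marks their differentiation from the lateral ganglionic eminence. The 10 genes described here belong to that group: Ebf1, Ebf2 and Ebf3, Zfp503, Foxp1, Foxp2 and Foxp4, Bcl11b, and Ikzf1 and Ikzf2. They were chosen by name, with earlier results of these data known. All 10 were found among the 55416 genes of the count table, and all 10 were among the 23628 genes that passed the filter on low counts. Total RNA, depleted of ribosomal RNA, was sequenced from mouse ganglionic eminences dissected at E13.5 (E, embryonic day). One group of 3 libraries came from embryos that lacked both Dlx1 and Dlx2, and the other group of 3 came from wild-type littermates. The alleles, the strain, the sex and the number of embryos behind a library are not given in the sources used here, so p-values measure the spread between libraries. The groups were unbalanced in Y-linked expression: the summed Y-linked level was 207 CPM in wild-type replicate 1, 214 and 212 CPM in double knockout replicates 2 and 3, and under 1 CPM in the other 3 libraries, where Xist was at 1230 to 1550 CPM. Dlx1 and Dlx2 encode homeodomain proteins expressed in the ventral forebrain, and the comparison asks how the striatal factors differ when both are missing.

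As background, new striatal neurons leave the cell cycle in the ventricular and subventricular zones and settle in the mantle, where they become either direct pathway neurons, which carry Drd1 and Tac1, or indirect pathway neurons, which carry Drd2 and Penk. Ebf1 belongs to the early B-cell factor family of helix-loop-helix proteins and takes part in the differentiation of direct pathway neurons. Zfp503, also called Nolz1, encodes a zinc finger repressor of young striatal neurons. The FOXP genes encode forkhead repressors that can pair with each other. Bcl11b, also called Ctip2, encodes a zinc finger protein needed for striatal neuron maturation and present in deep-layer cortical neurons too. Ikzf1 (Ikaros) and Ikzf2 (Helios) encode zinc finger proteins first studied in lymphocytes and later linked to indirect pathway neurons.

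Total counts ranged from 56618090 to 70114173 per library. The targeted genes followed the labels: Dlx1 was at 18.6% ± 2.46 and Dlx2 at 2.94% ± 0.674 of the wild-type mean (SD, n = 3). CPM below is a gene's count scaled to library size and by TMM, a correction for composition. Of 8 region genes of the ganglionic eminences, 4 were lower (Gad1, Gad2, Lhx8 and Lhx6), Gsx2 and Nkx2-1 were higher and 2 were not called by the test described below. That test called 2.68% of all genes tested. The calls of Lhx6, Nkx2-1 and Gsx2 were each lost without at least 1 library (edgeR adjusted p up to 0.118, 0.147 and 0.0969). All marker genes listed below were detected in at least 1 library. Double knockout replicate 3 stood apart from the other libraries of its group. Its chi-square statistic per gene was 36.4 and 30.0 against replicates 1 and 2, which differed from each other by 13.2. Without it, the members and listed genes named as called kept that call except Foxp2, but some sizes moved: the log2 fold change of Lhx6 went from -0.83 to -1.06 and that of Lhx8 from -1.22 to -1.47.

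Upstream sequence is shown for the members that fell most and for Ebf3, the member that rose. RefSeq start sites with sequence on GRCm38.p6 were at hand for 7 of the 10 members, in 11 windows. The 4 windows below are the 250 bases before a start site, read 5′ to 3′, and were kept because GENCODE M21 places no untranslated region in them. The Foxp1 window shown does hold 17 bases of annotated exon. The upstream and downstream Foxp1 windows, with 169 and 15 bases of untranslated region, were left out. Capitals mark TAATTA, the homeodomain core that DLX proteins can bind, which reads the same on both strands.
Ebf1, downstream start (chr11:44619978-44620227, plus strand): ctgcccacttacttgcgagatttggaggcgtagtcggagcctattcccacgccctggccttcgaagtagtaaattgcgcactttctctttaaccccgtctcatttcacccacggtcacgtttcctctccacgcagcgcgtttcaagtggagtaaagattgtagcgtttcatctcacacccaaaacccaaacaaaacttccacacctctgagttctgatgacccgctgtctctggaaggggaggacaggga
Zfp503 (chr14:21989602-21989851, minus strand): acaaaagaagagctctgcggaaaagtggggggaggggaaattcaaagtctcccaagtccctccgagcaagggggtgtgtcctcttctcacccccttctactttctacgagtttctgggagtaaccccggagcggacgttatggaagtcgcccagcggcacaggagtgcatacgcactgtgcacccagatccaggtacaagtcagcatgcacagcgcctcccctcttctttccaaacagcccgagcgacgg
Foxp1, middle start (chr6:99266516-99266765, minus strand): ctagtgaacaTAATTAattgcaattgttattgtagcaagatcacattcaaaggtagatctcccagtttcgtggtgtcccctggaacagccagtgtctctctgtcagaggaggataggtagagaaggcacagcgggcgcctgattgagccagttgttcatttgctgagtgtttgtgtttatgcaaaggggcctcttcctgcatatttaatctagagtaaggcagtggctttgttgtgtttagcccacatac
Ebf3 (chr7:137314446-137314695, minus strand): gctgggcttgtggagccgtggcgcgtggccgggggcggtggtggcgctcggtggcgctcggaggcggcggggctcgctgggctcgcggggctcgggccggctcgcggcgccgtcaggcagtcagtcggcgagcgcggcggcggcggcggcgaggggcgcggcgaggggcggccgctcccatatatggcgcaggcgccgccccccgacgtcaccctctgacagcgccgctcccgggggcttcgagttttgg
TAATTA was present in 1 of the 11 member windows, that of the middle Foxp1 start, 240 bases before it, and in 4.84% of all 32851 RefSeq windows of the same length. TGGGAA, the Ikaros core, searched on both strands, was in the Ebf1 window shown above and in none of the other 10 windows, against 21.6% of all windows. The forkhead motif TGTTTAC was searched in the same way and was in 0 of the 11 windows, against 3.17% of all windows. These are letter matches in short windows and say nothing about binding elsewhere. The windows differed in base composition, with 52% G and C for Ebf1, 57.2% for Zfp503, 45.2% for Foxp1 and 80% for Ebf3.

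Of the 10 members, 6 were lower in the double knockout, 1 was higher and 3 did not pass the test. The test was edgeR's quasi-likelihood test over all 23628 genes, with a call at a Benjamini-Hochberg adjusted p under 0.05. It called 2.68% of all genes tested, 1.34% in each direction. The 6 lower genes were Zfp503, Ebf1, Foxp1, Bcl11b, Foxp4 and Foxp2, and the higher one was Ebf3. The median log2 fold change of the members was -0.49, against 0.00 over all genes tested. The groups did not overlap for 8 of the 10 members, where 19.5% of all genes tested showed no overlap. As the members were chosen with earlier results of these data known, these comparisons with all genes are descriptions. In bulk tissue, fewer cells that carry a gene and less RNA per cell cannot be told apart.

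**Figure D1:**
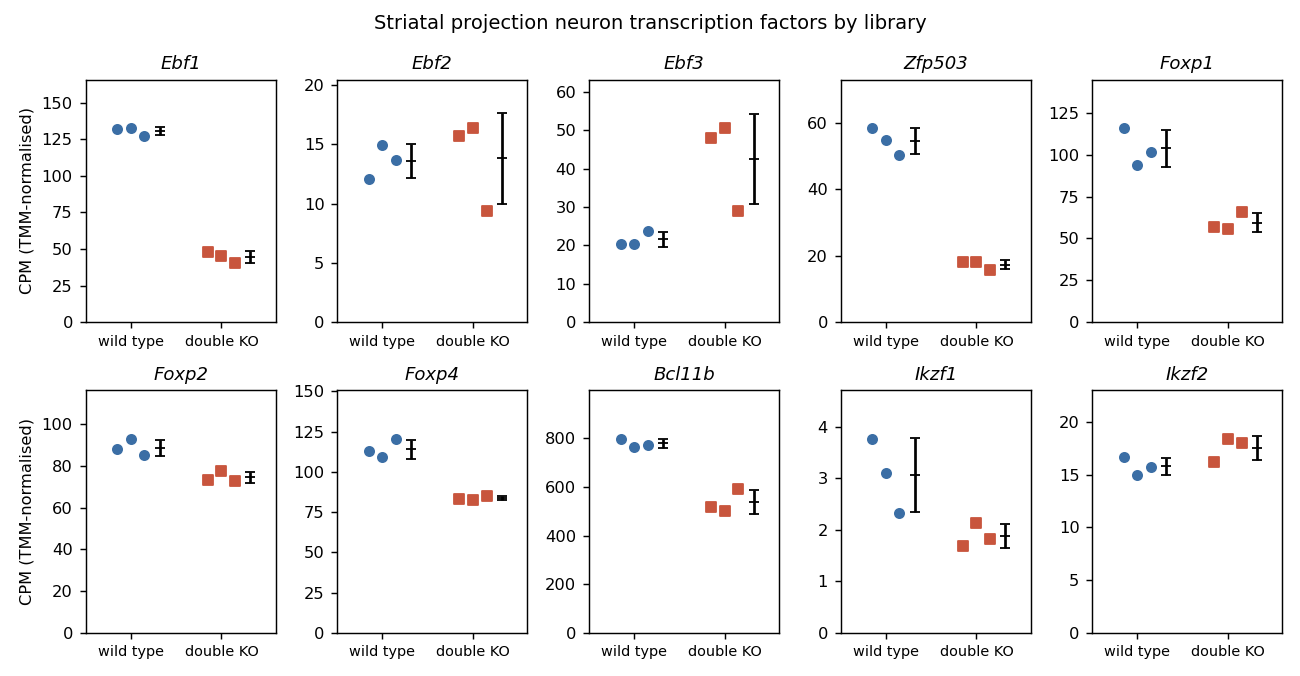
Level of each of the 10 genes in the 3 wild-type (blue circles) and 3 double knockout (red squares) libraries, in TMM-normalised CPM on linear axes that start at 0, with the group mean and SD as black bars. Ebf1 and Zfp503 lie far below the wild type in all 3 double knockout libraries, Ebf3 lies above it, and Ebf2 and Ikzf2 overlap.

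The EBF genes moved in different directions. Ebf1 (ENSMUSG00000057098) was at 131.7, 132.5 and 127.4 CPM in the wild-type libraries and at 48.2, 45.2 and 40.3 CPM in the double knockout. All 3 double knockout libraries were far below all 3 wild-type libraries, and 34.2% ± 3.06 of the wild-type mean remained (SD, n = 3). The fitted log2 fold change of Ebf1 was -1.55 (SE 0.0677, edgeR adjusted p = 1.09e-05). Ebf3 (ENSMUSG00000010476), a paralogue with the same kind of DNA-binding domain, was at 20.4, 20.4 and 23.8 CPM in the wild type and at 47.9, 50.5 and 29.0 CPM in the double knockout. Every double knockout library was above the wild type, though replicate 3 rose much less than the others. The log2 fold change of Ebf3 was 0.98 (SE 0.188, edgeR adjusted p = 0.0318). Ebf2 (ENSMUSG00000022053) was at 12.1, 14.97 and 13.7 CPM in the wild type and at 15.7, 16.4 and 9.38 CPM in the double knockout. Its groups overlapped, replicate 3 of the double knockout was the lowest library of the 6, and the log2 fold change was 0.02 (SE 0.195, edgeR adjusted p = 0.983). Without that library the log2 fold change of Ebf2 was 0.24 (SE 0.108, edgeR adjusted p = 0.359).

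Without double knockout replicate 3, the log2 fold change of Ebf3 was 1.20 (SE 0.0803) and its edgeR adjusted p was 1.50e-04. Leaving out any other library ended the call of Ebf3, with edgeR adjusted p between 0.0792 and 0.133. An antisense gene, Gm45278, overlaps 3.85% of the exonic length of Ebf3 on the opposite strand. Gm45278 was itself called, with 8 to 10 wild-type reads per library and 34 to 47 in the double knockout (log2 fold change 2.13, edgeR adjusted p = 0.0116). Whether the counting was strand-specific is not given in the sources used here. Ebf3 itself had 1196 to 1530 reads per wild-type library and 2013 to 3110 per double knockout library.

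The balance within the EBF family shifted from Ebf1 toward Ebf3. Levels of different genes were compared as CPM per kb of exon, with lengths from GENCODE M21. Each length joins the exons of all annotated transcripts of a gene, which need not be those expressed here. Comparisons per kb between genes, their shares and their order depend on these lengths. On that scale the summed EBF level was 17.7 ± 0.258 CPM per kb in the wild type and 11.2 ± 2.20 in the double knockout (SD, n = 3). Ebf1 made up 77.3%, 75.7% and 74.1% of the sum in the wild-type libraries and 39.9%, 37.2% and 47.9% in the double knockout. Ebf3 made up 12.7%, 12.3% and 14.7% in the wild type and 41.9%, 43.9% and 36.4% in the double knockout. The 3 double knockout libraries thus held about as much Ebf1 as Ebf3 per kb, with log2 ratios of -0.07, -0.24 and 0.39, while in the wild type they were 2.61, 2.62 and 2.34. The log2 ratio of Ebf2 to Ebf3 was -1.20, -1.21 and -1.22 in the double knockout libraries, so these 2 genes kept a near constant ratio in that group although replicate 3 held less of both. In the wild type that ratio was -0.34, -0.03 and -0.39.

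**Figure D2:**
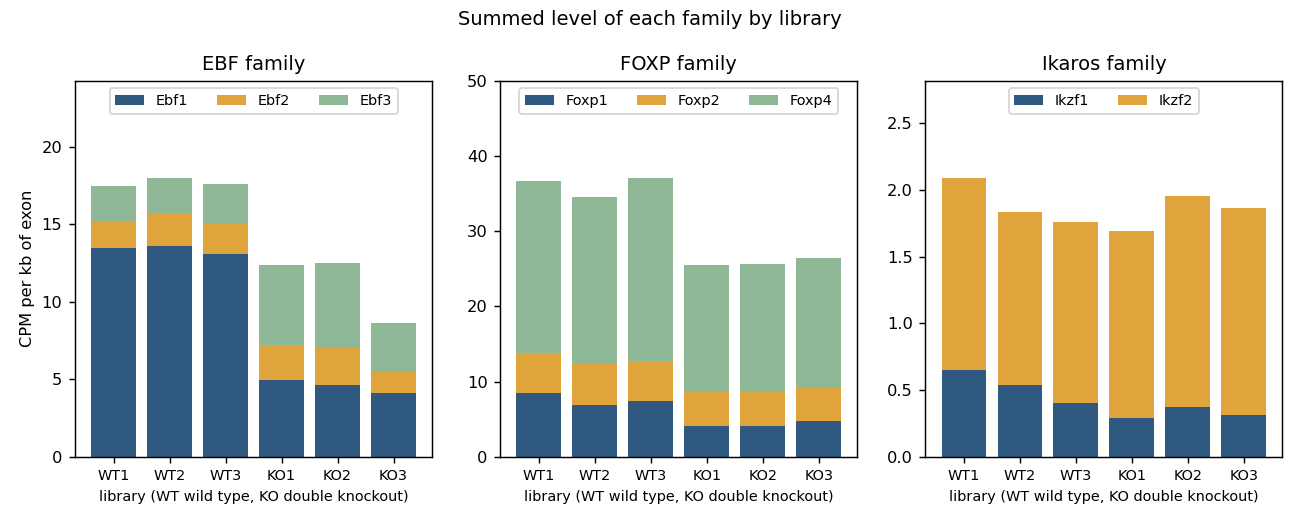
Stacked level of the EBF, FOXP and Ikaros genes in each library, in CPM per kb of exon on axes that start at 0. Ebf1 fills most of the EBF bar in the wild type, and Ebf1 and Ebf3 fill similar parts of it in double knockout replicates 1 and 2, while the parts of the FOXP bars stay closer to each other.

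Ebf2 and Ebf3 are also expressed by Cajal-Retzius cells, early neurons of the cortical surface, so 7 marker genes of those cells are given beside them. Their summed level was 349.3 to 399.9 CPM in the wild type and 409.1, 472.6 and 295.3 CPM in double knockout replicates 1 to 3. Of the 7 markers, Lhx1 was called higher, with a log2 fold change of 0.73 (SE 0.12, edgeR adjusted p = 0.0157), and 6 were not called. Lhx1 lost its call without wild-type replicate 1 or 2 or double knockout replicate 1 or 2 (edgeR adjusted p up to 0.0774). Reln, which encodes the secreted glycoprotein that defines these cells, was at 295.8, 347.4 and 212.0 CPM in the double knockout against 247.2 to 292.3 CPM in the wild type. Lhx5 was at 14.2, 16.2 and 8.53 CPM against 8.63 to 9.46 CPM. Double knockout replicate 3 was the lowest library of its group for Ebf2, Ebf3, Reln and Lhx5 alike. This was not particular to these genes. The same library was also the lowest of its group for Ebf1 and for Map2 and Tubb3, genes of neurons in general, and the highest for Bcl11b and Foxp1. The part of these cells in the Ebf3 result was not tested.

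**Figure D3:**
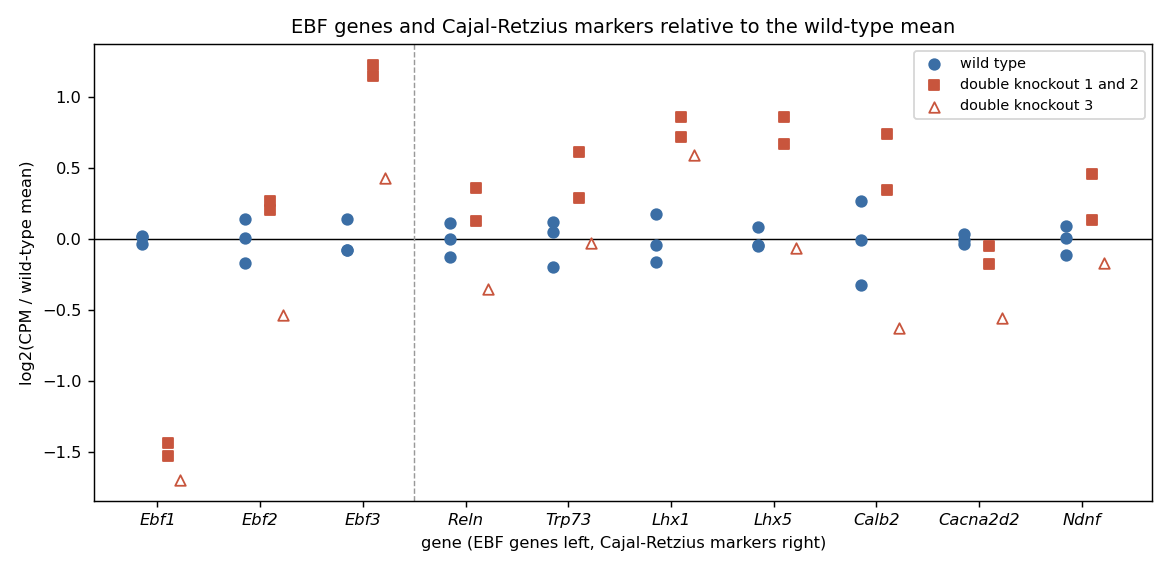
log2 of CPM over the wild-type mean for the 3 EBF genes (left of the dashed line) and 7 Cajal-Retzius markers (right), with wild-type libraries as blue circles, double knockout replicates 1 and 2 as red squares and replicate 3 as open triangles. Replicate 3 lies below the other double knockout libraries for every gene shown.

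Zfp503 (ENSMUSG00000039081) fell by about as much as Ebf1. It was at 58.4, 54.9 and 50.3 CPM in the wild type and at 18.0, 18.1 and 15.8 CPM in the double knockout, with no overlap. Its level was 31.7% ± 2.32 of the wild-type mean (SD, n = 3), and the log2 fold change was -1.66 (SE 0.0816, edgeR adjusted p = 2.14e-05). In wild type, Zfp503 and Ebf1 overlapped in level per kb, at 12.9 ± 0.959 and 13.4 ± 0.284 CPM per kb (SD, n = 3). In the double knockout, Zfp503 was at 4.10 ± 0.30 and Ebf1 at 4.57 ± 0.41 CPM per kb, again with overlapping libraries. Zfp503 was also 1 of the 5 genes whose log2 CPM followed that of Ebf1 most closely over the 6 libraries, out of 16485 genes whose mean was 1 CPM or more. The other 4 were Ccdc88a, Dlx6os1, Aldh1a3 and Runx1t1, and Pearson's r was between 0.9976 and 0.9981. This is a description of 6 libraries in 2 separate groups, and any gene with a clean genotype difference scores high by this measure.

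All 3 FOXP genes were lower, by unequal amounts. Foxp1 (ENSMUSG00000030067), which marks most striatal projection neurons, was at 115.8, 93.8 and 101.8 CPM in the wild type and at 56.9, 55.7 and 65.7 CPM in the double knockout. The groups were well apart, and the log2 fold change was -0.80 (SE 0.0901, edgeR adjusted p = 0.00232). Foxp4 (ENSMUSG00000023991), the FOXP gene with the broadest expression in the early brain, was at 112.8, 108.9 and 120.4 CPM in the wild type and at 83.3, 82.7 and 84.9 CPM without Dlx1 and Dlx2. Those 3 libraries lay within a narrow band below the wild type, with a log2 fold change of -0.45 (SE 0.0502, edgeR adjusted p = 0.00234). Foxp2 (ENSMUSG00000029563), known for its role in vocal learning circuits, was at 88.0, 93.0 and 85.4 CPM in the wild type and at 73.1, 77.6 and 72.9 CPM in the double knockout. The groups did not overlap but were close, with 83.9% ± 2.97 of the wild-type mean left (SD, n = 3) and a log2 fold change of -0.25 (SE 0.0516, edgeR adjusted p = 0.0408). The call of Foxp2 was lost without any 1 of the 6 libraries, with edgeR adjusted p between 0.0634 and 0.153, and with library totals in place of TMM (0.0869).

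Per kb, Foxp4 was the most abundant FOXP gene in both groups, at 64.1% ± 1.78 of the summed FOXP level in the wild type and 65.7% ± 0.576 in the double knockout (SD, n = 3). That lead rests largely on exon length, which was 4.926 kb for Foxp4, 13.75 kb for Foxp1 and 16.35 kb for Foxp2. Before division by length, their wild-type means were 114.0, 103.8 and 88.8 CPM. Foxp1 made up 23.0%, 19.7% and 19.98% in the wild-type libraries and 16.2%, 15.8% and 18.1% in the double knockout. Foxp2 made up 14.7%, 16.4% and 14.1% in the wild type and 17.5%, 18.5% and 16.8% in the double knockout. Foxp1 thus exceeded Foxp2 in every wild-type library, with log2 ratios of 0.65, 0.26 and 0.50, and the ratios were -0.11, -0.23 and 0.10 in the double knockout. Gm20696 overlaps 2.18% of the exonic length of Foxp1 on the same strand and held 47 to 104 reads per library, where Foxp1 held 3216 to 6790.

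Bcl11b (ENSMUSG00000048251) was by far the most abundant member. It was at 797.8, 765.3 and 773.7 CPM in the wild type and at 516.2, 500.4 and 593.2 CPM in the double knockout. The groups did not overlap, 68.9% ± 6.37 of the wild-type mean remained (SD, n = 3), and the log2 fold change was -0.54 (SE 0.0733, edgeR adjusted p = 0.00665). Its level per kb was 96.0 ± 2.08 CPM in the wild type and 66.2 ± 6.12 in the double knockout (SD, n = 3), above that of every other member in both groups. Since Bcl11b, Foxp1 and Foxp2 are also found in cortical projection neurons, 11 genes of cortical excitatory neurons are given beside them. Of these, 1 gene, Neurod2, was called lower, with a log2 fold change of -0.53 (SE 0.0526, edgeR adjusted p = 0.00127), and 10 were not called. DESeq2 called 5 of the 11 and limma-voom 1, and 10 had an unadjusted edgeR p under 0.05, as did 3149 of all 23628 genes tested. The groups did not overlap for 8 of the 11, all lower in the double knockout, as for 2419 of all genes tested. The median log2 fold change of the 11 was -0.39. Summed over the 11 genes, wild-type libraries held 1047 to 1070 CPM and double knockout libraries 814.6 to 841.2 CPM. The part of these cells in the lower Bcl11b, Foxp1 and Foxp2 was not tested.

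The Ikaros genes did not pass the test. Ikzf1 (ENSMUSG00000018654) was at 3.77, 3.11 and 2.34 CPM in the wild type and at 1.69, 2.13 and 1.81 CPM in the double knockout, from 110 to 221 reads per library. The groups did not overlap, but the spread within the wild type was wide, and the log2 fold change was -0.71 (SE 0.20, edgeR adjusted p = 0.135). DESeq2 gave an adjusted p of 0.0350 for Ikzf1. Ikzf2 (ENSMUSG00000025997) was at 16.7, 15.02 and 15.8 CPM in the wild type and at 16.2, 18.4 and 18.0 CPM in the double knockout. The groups overlapped, with a log2 fold change of 0.15 (SE 0.0828, edgeR adjusted p = 0.515). The log2 ratio of Ikzf1 to Ikzf2 per kb was -1.14, -1.26 and -1.75 in the wild type and -2.25, -2.10 and -2.30 in the double knockout. Ikzf1 is also a gene of immune cells, and of 12 immune and microglial genes 0 were called by edgeR, by DESeq2 or by limma-voom, and 1 had an unadjusted edgeR p under 0.05. Their summed level was 37.6 to 45.9 CPM in the wild type and 37.4 to 53.9 CPM in the double knockout. Gm29114 overlaps 1.24% of the exonic length of Ikzf2 on the opposite strand, with 8 to 22 reads per library.

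The order of levels per kb, which depends on the exon lengths used, differed between the genotypes. In the wild type it ran from Bcl11b through Foxp4, Ebf1, Zfp503, Foxp1, Foxp2, Ebf3, Ebf2 and Ikzf2 to Ikzf1. The libraries of neighbours in that order overlapped for 1 pair, Ebf1 and Zfp503. In the double knockout, Bcl11b and Foxp4 still led, and Ebf3, Ebf1, Foxp2, Foxp1 and Zfp503 followed with means from 4.60 to 4.10 CPM per kb. Each of these 5 overlapped its neighbour in the order, so their sequence is not resolved. Ebf2 and Ikzf2 came next, at 1.99 ± 0.556 and 1.51 ± 0.0987 CPM per kb (SD, n = 3) and also overlapping, and Ikzf1 was the lowest, at 0.325 ± 0.0392 CPM per kb.

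The ratios of paralogues were tested for the 7 pairs within the EBF, FOXP and Ikaros families. The difference between the groups was -2.49 on the log2 scale for Ebf1 to Ebf3, -1.54 for Ebf1 to Ebf2, -0.96 for Ebf2 to Ebf3 and -0.84 for Ikzf1 to Ikzf2. Within the FOXP family it was -0.55 for Foxp1 to Foxp2, -0.36 for Foxp1 to Foxp4 and 0.19 for Foxp2 to Foxp4. The groups were apart for each of the 7 pairs. Pairs within the EBF and FOXP families share genes, so these are not 7 separate results. A ratio with Ebf1 is bound to fall with Ebf1 itself unless the other gene falls as much. How often other gene pairs come apart was not measured. An exact two-sided permutation test gave p = 0.10 for each, and 0.10 after adjustment over the 7 pairs, which is the smallest p that 3 against 3 libraries allow.

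Other genes of the lineage were examined in 2 lists. Of 20 further striatal transcription factor genes, 8 were lower, 2 were higher and 10 were not called, with a median log2 fold change of -0.25. The retinoid receptor genes Rxrg and Rarb and the zinc finger gene Sp8 had log2 fold changes of -1.81, -1.73 and -1.72, close in size to Ebf1 and Zfp503. Mef2c and Foxo1 had log2 fold changes of -0.71 and -0.58. Without double knockout replicate 3, Sp8 was at -1.47 and Mef2c at -0.53. The call of Mef2c was lost with library totals in place of TMM (edgeR adjusted p = 0.0750), with a filter at a mean of 1 CPM (0.0669) and without double knockout replicate 1 or any 1 wild-type library (up to 0.174). That of Foxo1 was lost without double knockout replicate 1 or wild-type replicate 1 or 2 (edgeR adjusted p up to 0.0904). Isl1, a LIM homeodomain gene of direct pathway neurons, rose from 61.5 ± 3.25 to 94.6 ± 10.1 CPM (SD, n = 3), with a log2 fold change of 0.62 and an edgeR adjusted p of 0.00442. Zfp521, a zinc finger gene, also rose, with a log2 fold change of 0.57 (edgeR adjusted p = 0.00342), and was named after its value was seen. Top2b overlaps 34.1% of the exonic length of Rarb on the opposite strand, so the Rarb counts are uncertain.

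Of 19 effector genes of projection neurons, meaning receptors, peptides and signalling proteins, 7 were lower, 1 was higher and 11 were not called, with a median log2 fold change of -0.42. Oprm1, the mu opioid receptor gene of striosomes, had a log2 fold change of -2.33 (SE 0.28, edgeR adjusted p = 0.00331). In each pathway, some markers were called lower and others were not called. Of the genes linked to direct pathway neurons, Chrm4 (below) and the factor gene Isl1 (above) were called higher. Of the direct pathway genes, Drd1 and Tac1 were called lower, with log2 fold changes of -1.89 and -1.81, and Pdyn, a peptide gene, was not called, at 0.00 (SE 0.378). Of the indirect pathway genes, Penk and Drd2 were called lower, at -1.38 and -1.13. The receptor genes Adora2a and Gpr6 of the same pathway were not called, at -0.75 and -0.06 (edgeR adjusted p of 0.0733 and 0.982). For Adora2a, every double knockout library was below the wild type. Gpr6 had 4 to 17 reads per library. Pdyn, Adora2a and Gpr6 were named after their values were seen. Penk lost its call without wild-type replicate 1 or 2 (edgeR adjusted p up to 0.0647), and Drd2 without any 1 wild-type library (up to 0.0611). Drd1, Penk, Drd2 and Oprm1 were low at this age, with wild-type means of 2.27, 1.76, 3.12 and 3.535 CPM. Oprm1 had 32 to 59 reads per double knockout library. The gene that rose was Chrm4, a muscarinic receptor gene enriched in direct pathway neurons, from 1.63 ± 0.376 to 3.44 ± 0.358 CPM (SD, n = 3), with a log2 fold change of 1.08 (edgeR adjusted p = 0.0246). Its call was lost without any 1 library other than double knockout replicate 3 (edgeR adjusted p up to 0.0656). A gene on the opposite strand overlaps 14.3% of the exonic length of Penk.

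**Figure D4:**
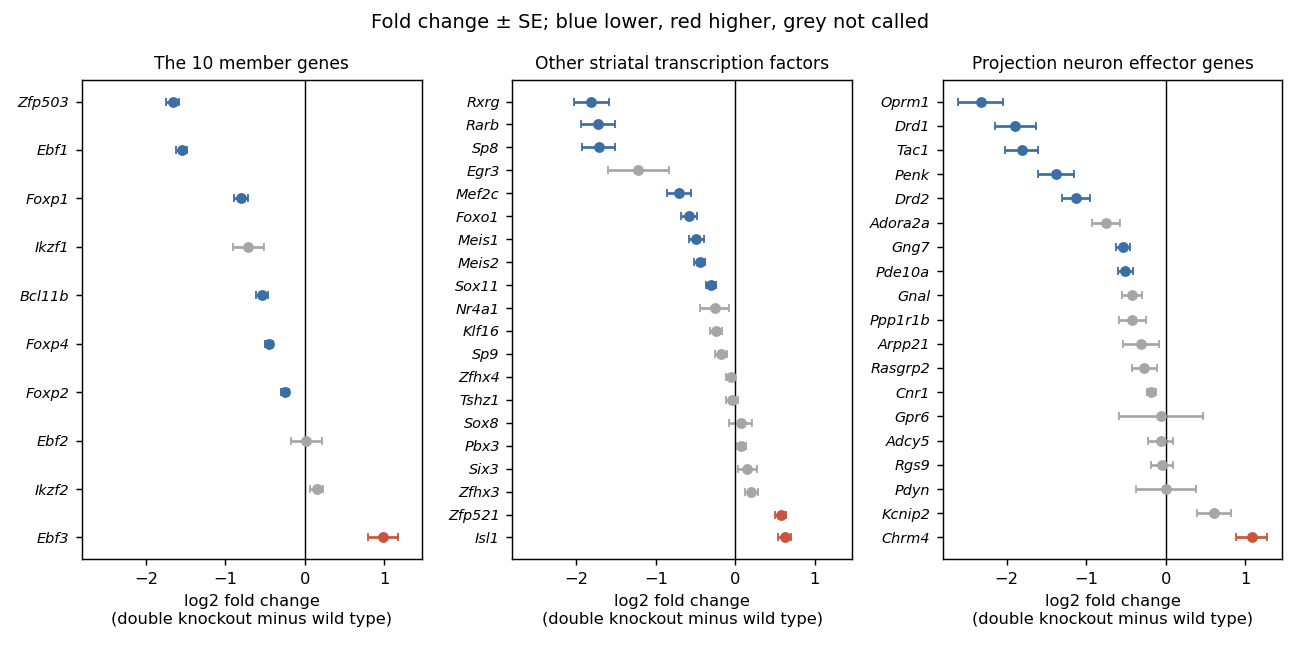
log2 fold change with its SE for the 10 members, 20 other striatal transcription factors and 19 effector genes, each panel in order of fold change. Blue marks genes called lower, red those called higher and grey those not called at an edgeR adjusted p under 0.05. Zfp503 and Ebf1 lie near Rxrg, Rarb and Sp8, and 1 member, 2 other factors and 1 effector gene were called higher.

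Of 10 genes of neurons in general, 2 were called lower, Elavl3 and Snap25, with log2 fold changes of -0.26 and -0.36, and 8 were not called. Among these 8, Dcx and Tubb3 were at -0.37 and -0.33 (edgeR adjusted p of 0.0738 and 0.0521), and Map2 and Gap43 at -0.01 and 0.03. The log2 fold change was negative for 9 of the 10, and the groups did not overlap for 6, all lower. Unadjusted edgeR p was under 0.05 for 6, and DESeq2 and limma-voom each called 4. Elavl3 and Snap25 both lost the call without any 1 library other than double knockout replicate 3, with edgeR adjusted p of up to 0.175 for Elavl3 and 0.156 for Snap25. The median of the 10 was -0.22, near that of the 20 other striatal factors (-0.25). Of those 20, 2 were called higher and 8 lower, so near medians do not show like changes. Their summed level was 6329 to 6854 CPM in the wild type and 5184 to 6001 CPM in the double knockout. When libraries were scaled to that sum instead of by TMM, the median of all genes tested moved to 0.22, and edgeR called 808 genes higher and 157 lower, against 317 and 317. On that scale Zfp503, Ebf1 and Foxp1 were still called lower, with log2 fold changes of -1.44, -1.34 and -0.57. Bcl11b, Foxp4 and Foxp2 were not called, at -0.31, -0.22 and -0.03 (edgeR adjusted p of 0.159, 0.170 and 0.815), and Ebf3 was called higher at 1.18. Changing the library scale moves all genes by nearly the same amount. Set against the moved median of 0.22, these values are therefore bound to lie close to those with TMM, and their closeness tests nothing. The summed level of 9 progenitor genes was 2711 to 3071 CPM in the wild type and 3152 to 3719 CPM in the double knockout. Of the 9, 1 was called higher, the Notch target Hes5. A gene on the opposite strand overlaps 31.8% of the exonic length of Hes5, so its counts are uncertain. The median log2 fold change of the 9 was 0.26. The groups did not overlap for 3, all higher, and 5 had an unadjusted edgeR p under 0.05. Of all 23628 genes tested, 2197 did not overlap and were higher, and 2419 did not overlap and were lower. An unadjusted edgeR p under 0.05 was found for 3149 of the 23628. These shares stand beside the counts of the neuron and progenitor lists. The part of a changed share of neurons in these results was not tested.

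Ebf1 is also expressed by pericytes and other mesenchymal cells. Of 10 pericyte and meningeal genes, 0 were called by edgeR, by DESeq2 or by limma-voom, and 0 had an unadjusted edgeR p under 0.05. Their summed level overlapped between groups, at 99.6 to 123.4 CPM in the wild type and 104.4 to 119.4 CPM in the double knockout. The 7 endothelial genes also overlapped in sum, at 126.5 to 144.1 and 133.5 to 156.0 CPM, and so did the 9 genes of red blood cells, at 108.0 to 135.7 and 98.1 to 155.7 CPM. In both of these lists, too, 0 genes were called by edgeR, DESeq2 or limma-voom and 0 had an unadjusted edgeR p under 0.05.

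Across the 15 alternative settings, Ebf1, Zfp503 and Foxp1 were called lower in every one, with log2 fold changes from -1.61 to -1.34, from -1.71 to -1.44 and from -0.88 to -0.57. Foxp4 and Bcl11b were called lower in 14 of the 15, all but the scaling to neuron genes. Ebf3 was called higher in 7 and Foxp2 lower in 5. Beside the fits without a library, limma-voom and a term for Y-linked expression ended the call of Ebf3 (adjusted p of 0.0581 and 0.0603) and of Foxp2 (0.0546 and 0.146). Ebf2 and Ikzf2 were called in 0 of the 15, DESeq2 and limma-voom included, and neither had an unadjusted edgeR p under 0.05.

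**Figure D5:**
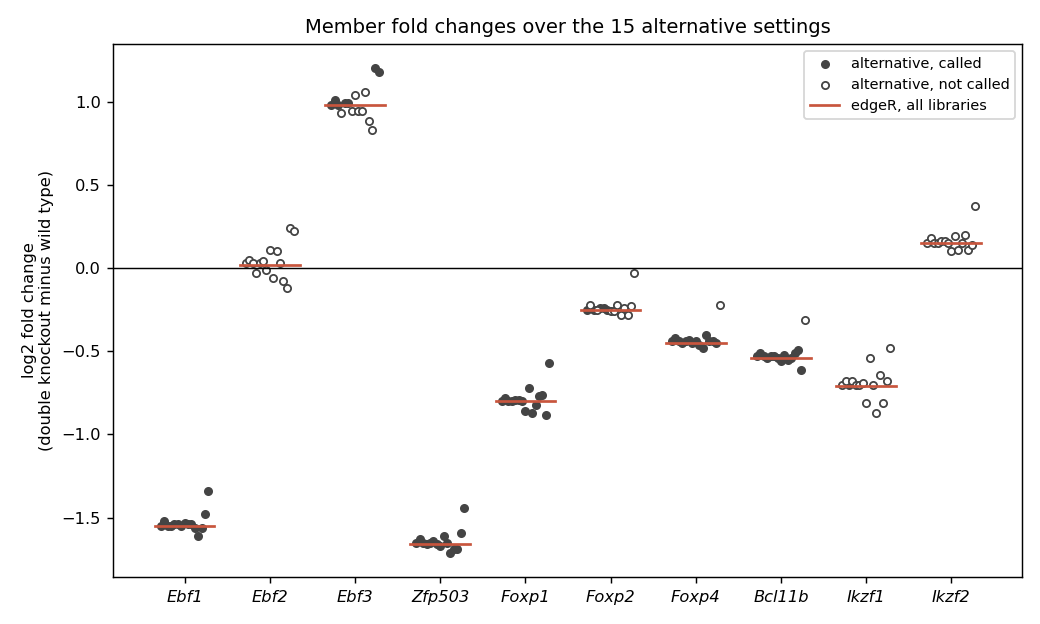
log2 fold change of each member under the 15 alternative settings (points, filled where called at an adjusted p under 0.05) and in the edgeR fit of all 6 libraries (red line). Points are filled throughout for Ebf1, Zfp503 and Foxp1, while those of Ebf3 and Foxp2 are partly open and those of Ebf2 lie on both sides of 0.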

How the data were processed

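Whole-number read counts per gene, not normalised, were deposited by the authors in 1 table with a column per library; featureCounts and the build GRCm39 are named in the submitters' processing notes. The aligner, versions, annotation release, strand and multi-mapping settings are not given in the sources used here. Per the labels' protocols, a stranded kit for ribosome-depleted total RNA was used, so unspliced transcripts are present too.

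Groups and replicate numbers came from the titles. edgeR 4.0.16 in R 4.3.3 was run on all genes: filterByExpr (minimum count 10, minimum total 15), TMM scaling, quasi-likelihood test, prior count 0.125 and Benjamini-Hochberg adjustment, with genotype as the sole term. SE is the coefficient over the square root of F. DESeq2 1.42.0 and limma-voom (limma 3.58.1) were alternatives. The pipeline was tested on simulated data. Exon lengths and overlaps came from GENCODE M21 (GRCm38), which held 94.0% of the identifiers; promoters came from RefSeq. As that build is not the authors', no gene coordinates are combined.

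Members and lists were chosen with earlier results of these data known. All members are named, and so are the 5 genes most like Ebf1 (Pearson's r of log2(CPM + 0.5)). From each striatal list, up to 6 called genes with the largest change are named (those named beyond it are marked in the text). From marker lists, called genes and some of the most abundant are named, and also Gap43 and Lhx5. Some listed genes are not reported here and were left out of their lists and counts. Reads carry no molecular identifiers, and depth covers counting error only.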

Additional observations from a re-analysis of the deposited data

How the results depend on the processing

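With the library scale set by neuron genes, an alternative chosen after seeing the data, 4 members (1 higher, 3 lower), 6 of the other striatal transcription factors and 965 of all genes were called. Among all genes, DESeq2 called 1162 and the term for Y-linked expression left 358, with 5 of the effector genes. Scaling by library totals called 390 genes higher and 257 lower, and called 6 members. Without 1 library, 309 (without wild-type replicate 1) to 749 (without double knockout replicate 3) of all genes were called, 5 to 6 members, 6 to 12 of the other factors and 3 to 10 of the effector genes. The same 5 members, Ebf1, Zfp503, Foxp1, Foxp4 and Bcl11b, were called in all 6 of those fits. Ebf2, never called, changed sign: its log2 fold change was -0.03 with limma-voom and ranged from -0.12 to 0.24 without 1 library. The cause was not tested.

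Replicate numbers were not used to pair libraries. Same-numbered libraries had correlations of 0.252, 0.0833 and 0.131 in their deviations from group means, and 5 of the 6 libraries correlated best with their own number. With the replicate block, 690 genes and 6 members were called, Ebf3 not among them (edgeR adjusted p = 0.0553), and Ebf2 was at -0.01. Ikzf1 had the fewest reads of the members, 110 to 221 per library, but its SE (0.20) was close to that of Ebf2 (0.195), which had 651 to 1019.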
